A study of Mus musculus with 40 samples.

Results

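Skeletal muscle transcripts were followed in brown adipose tissue (BAT) of 40 mice as a set of 36 genes, taken by symbol from the table of exon counts. The set holds 14 genes typical of fast muscle fibres, 7 typical of slow fibres and 15 used in both, out of 20295 genes in the table. Whole BAT was measured by RNA sequencing, with 1 library per mouse and 5 mice in each of 8 groups. In the first cohort, C-3BO mice were compared with control littermates on chow or after 7 days of a high fat diet (HFD) with 60% of its calories from fat. C-3BO mice carry a Gpr3 transgene in the Rosa26 locus that Cre recombinase, driven by the Ucp1 promoter, switches on in cells that express Ucp1. Their controls carried either the transgene without Cre or Cre without the transgene. In the second cohort, littermate controls of another Gpr3 transgenic line received daily injections on 9 consecutive days. They were given 1 mg/kg CL-316,243 (CL), an agonist of the β3-adrenergic receptor, or 10 ul/g saline, on chow or with 7 days of HFD. Per the study's methods, all mice were males kept at 29 °C, the first cohort 13 to 19 weeks and the second 15 weeks old. The study lists the injected mice under wildtype mice and describes them as control littermates of its tamoxifen-inducible Gpr3 line (I-3BO). It defines the controls of that line as having the transgene without Cre, or Cre without the transgene. The groups are named chow control, chow C-3BO, HFD control, HFD C-3BO, chow saline, chow CL, HFD saline and HFD CL.

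A muscle fibre contracts when calcium leaves its internal store through the ryanodine receptor, binds troponin on the actin filament and lets myosin heads pull. A calcium pump then refills the store, where calsequestrin holds the calcium. Fast and slow fibres use different genes for myosin, troponin and calsequestrin, so that the mixture of these transcripts marks the fibre types present. Interscapular BAT lies on the muscles of the back, brown adipocytes and muscle fibres share a developmental origin, and brown adipocytes also make myoglobin. The counts were read for whether the members rose and fell together from library to library. A muscle fragment taken with the fat would add many members at once, in a mixture set by its fibre types. Such joint scaling does not by itself show where the transcripts came from, and their origin was not tested. In these bulk libraries, fewer cells of a type and less RNA per cell cannot be told apart.

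Library totals lay between 849126 and 15260516 counts, and levels are given as CPM, counts scaled to a common library size with TMM factors. Every library showed brown fat transcripts: Ucp1, the uncoupling protein of brown adipocytes, lay between 1116 and 15797.5 CPM. Gpr3 was at 266 CPM or more in the 10 C-3BO libraries and at 9.15 CPM or less in the other libraries. A set of 12 libraries (all of HFD saline and HFD CL, and replicates 4 and 5 of HFD C-3BO) held 62.2 to 294 CPM of the liver gene Alb against at most 1.62 CPM elsewhere, and their totals were low, with the lowest in HFD saline replicate 4. Diet and this set of libraries cannot be told apart in the injected cohort.

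The upstream sequences of 3 members are shown: Acta1, the gene that the others were compared with, Myh4, which scaled with Acta1, and Casq2, which did not. Each runs for 250 bases up to the gene start listed in the deposited table, read from the mm9 genome on the strand of the gene. Acta1's window lies at chr8:126418676-126418925 (minus strand), that of Myh4 at chr11:67051064-67051313 (plus strand) and that of Casq2 at chr3:101890128-101890377 (plus strand). Capitals mark E-boxes (CANNTG, the motif of the myogenic regulators such as MyoD), CArG boxes (the site of serum response factor, searched as CC and GG around 6 bases of A or T), MEF2 sites (searched as CTA and TAG around 4 bases of A or T) and MCAT elements (CATTCC), searched on both strands. Looser forms of these motifs were not searched.
Acta1: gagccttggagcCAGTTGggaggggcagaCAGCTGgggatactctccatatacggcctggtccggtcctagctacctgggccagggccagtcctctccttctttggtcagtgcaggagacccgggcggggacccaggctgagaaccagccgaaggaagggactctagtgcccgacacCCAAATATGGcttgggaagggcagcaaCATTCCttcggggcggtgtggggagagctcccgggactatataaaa
Myh4: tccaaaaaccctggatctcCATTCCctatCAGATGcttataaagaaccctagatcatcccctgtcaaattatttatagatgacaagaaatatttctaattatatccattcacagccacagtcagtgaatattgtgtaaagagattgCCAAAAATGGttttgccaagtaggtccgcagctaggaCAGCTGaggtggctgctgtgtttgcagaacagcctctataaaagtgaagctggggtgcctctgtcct
Casq2: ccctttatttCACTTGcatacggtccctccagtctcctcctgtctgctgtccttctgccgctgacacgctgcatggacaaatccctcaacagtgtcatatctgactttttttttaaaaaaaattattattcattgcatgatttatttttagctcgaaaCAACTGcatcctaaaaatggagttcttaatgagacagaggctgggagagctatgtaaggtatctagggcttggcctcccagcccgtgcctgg
The Acta1 and Myh4 windows each held a CArG box and an MCAT element, and the Casq2 window held E-boxes and no match to the other 3 motifs as spelled here. Of other members that scaled closely with Acta1, Atp2a1, Tnni2, Ckm and Pvalb also had E-boxes alone. Actn3 and Ryr1 had none of these motifs, and Tnnt3 had E-boxes and an MCAT element. Whether the motifs go with the scaling was not tested. Among the members, 32 of 36 windows held an E-box against 61.6% of all 20295 windows, and 10 held an MCAT element (11.1% of all). A CArG box stood in 3 members' windows (1.26% of all) and a MEF2 site in 4 (0.448% of all). These are matches of letters in a window, not bound sites.

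The muscle transcripts made up between 0.00899% and 1.76% of a library's counts. Summed over the 36 members, the level was 1554, 9262, 17477, 17350 and 14677 CPM in chow control replicates 1 to 5. In chow C-3BO it was 879, 7873, 2690, 2656 and 7129 CPM, and in chow saline 4618, 165, 87.8, 1973 and 3029 CPM. The other 5 groups lay lower, between 89.3 and 460 CPM in HFD control, 124 and 283 CPM in HFD C-3BO, 102 and 369 CPM in chow CL, 105 and 3740 CPM in HFD saline, and 189 and 1347 CPM in HFD CL. HFD saline replicate 3 held the 3740 CPM, and the other HFD saline libraries reached 448 CPM at most. Within chow control, replicate 1 was the lowest library for all 36 members, and the mean of the other 4 libraries exceeded it by 2.28-fold (Casq2) to 129-fold (Myoz2), with a median of 10.9-fold.

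**Figure D1:**
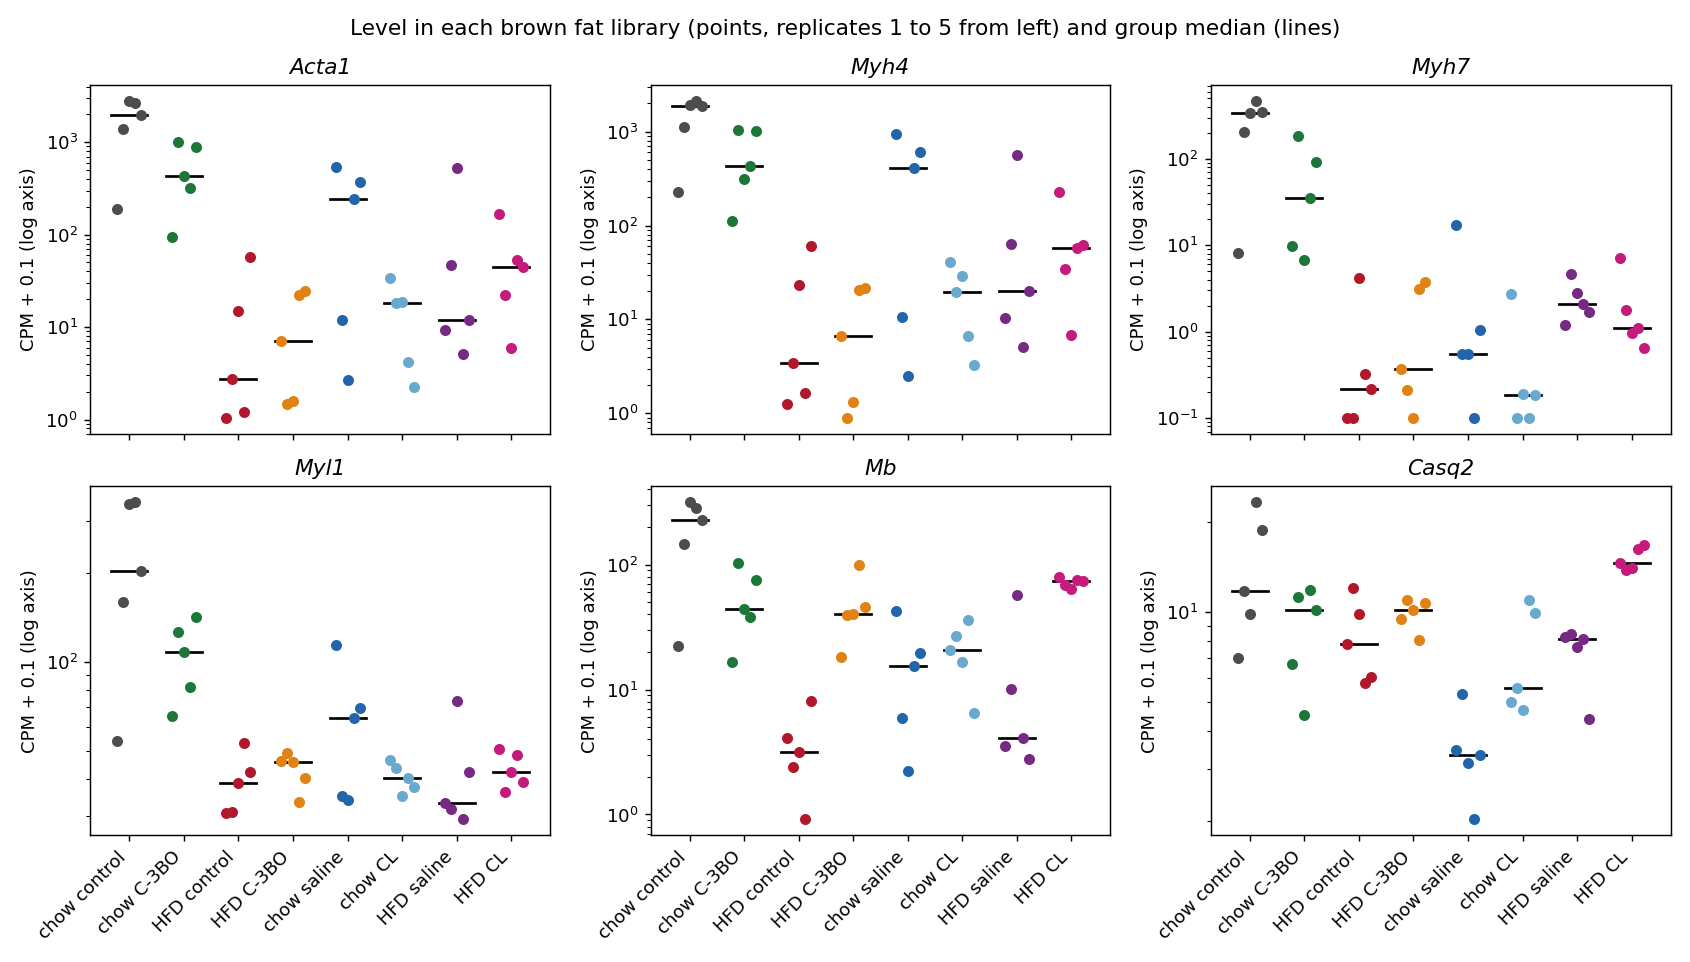
Level of 6 members in each library, as CPM plus 0.1 on a log axis, by group (points, replicates 1 to 5 from left, line at the median). Acta1, Myh4 and Myh7 span several orders of magnitude and are highest in chow control, Myl1 stays at 29.1 CPM or more, Mb is above every HFD control library in all HFD C-3BO libraries, and Casq2 spans 1.93 to 23.2 CPM.

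Acta1, the actin of the skeletal muscle thin filament, stood at 189.6, 1380.3, 2804, 2629 and 1957 CPM in chow control and at 0.936, 2.67, 15, 1.11 and 57.7 CPM in HFD control. In chow C-3BO it was at 93.3, 1003, 433, 318 and 890.4 CPM and in HFD C-3BO at 6.94, 1.35, 1.47, 22 and 24.6 CPM. No HFD library of this cohort reached a chow library of the same genotype. In the injected cohort, Acta1 was at 533, 11.8, 2.59, 241 and 367 CPM in chow saline and at 33.9, 18.3, 18.5, 4.11 and 2.16 CPM in chow CL, with overlap between the groups. HFD saline held 9.09, 47.1, 529.9, 5.01 and 11.7 CPM, so that replicate 3 alone lay in the range of the high chow saline libraries, and HFD CL held 167, 22.4, 5.82, 53.3 and 44.1 CPM.

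Myh4 and Atp2a1, genes of the fast fibre, came close to this order of libraries. Myh4, the myosin heavy chain of the fastest fibres, was at 229, 1129, 1915, 2128 and 1882 CPM in chow control and at 1.15, 3.38, 23.4, 1.55 and 59.7 CPM in HFD control. Atp2a1, the calcium pump of fast fibres, was at 227, 1113, 1964, 2019.9 and 1867 CPM in chow control and at 1.01, 3.11, 17.3, 1.18 and 65.1 CPM in HFD control. The order within these groups was that of Acta1 apart from neighbouring libraries, with HFD control replicates 3 and 5 above the other 3 for all 3 genes. In chow saline, Myh4 stood at 952, 10.6, 2.41, 407 and 599 CPM, with replicates 2 and 3 near the level of chow CL (3.19 to 41.1 CPM). The fast troponins Tnnt3, Tnni2 and Tnnc2, which bind tropomyosin, inhibit contraction and bind calcium, reached 783, 512 and 490.4 CPM in chow control replicate 3, the highest value of each. Casq1, the calcium store protein of fast fibres, reached 235 CPM in chow control replicate 4 and stayed at or under 4.77 CPM in HFD control. Ckm, the muscle creatine kinase that rebuilds ATP in both fibre types, ran from 91.9 to 1354 CPM in chow control and from 0.37 to 19.5 CPM in HFD control. Xirp2, an actin-binding protein of the fibre's attachment sites, ran from 23.0 to 297 CPM in chow control and from 0 to 4.41 CPM in HFD control, without overlap.

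Slow fibre genes were lower, and their proportion to the fast genes differed between libraries. Myh7, the slow myosin heavy chain, was at 8.01, 201, 339, 468 and 349.5 CPM in chow control and at 9.64, 181, 6.57, 35.3 and 92.4 CPM in chow C-3BO. In chow saline it was at 17.1, 0.446, 0.447, 0 and 0.935 CPM, and 0 counts in replicate 4 allow up to 0.304 CPM (3 counts, counting error only), while Myh4 stood at 407 CPM in that library. Only replicate 1 of chow saline thus held Myh7 above 1 CPM. The slow troponins had the same pattern. Tnnt1 was at 2.31, 32.3, 82.6, 95.5 and 54.0 CPM, Tnni1 at 1.57, 27.9, 67.4, 92.1 and 47.9 CPM and Tnnc1 at 1.16, 25.6, 54.5, 81.1 and 50.05 CPM in chow control. In chow saline replicates 4 and 5 they were at 0.085 to 1.11 CPM, although the fast partner of each stood between 40.4 and 116 CPM there.

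Summed over the lists, slow genes made up 4.53% of fast plus slow CPM in chow control replicate 1 and 8.43 to 11.5% in the other 4 chow control libraries. In chow C-3BO the share was 6.94, 9.79, 2.81, 6.63 and 6.37%, and in chow saline replicates 1, 4 and 5, which held much fast transcript, 2.91, 1.87 and 1.62%. HFD saline replicate 3 lay at 3.52%. In some libraries with little muscle transcript the share was higher, up to 21.5% in HFD control replicate 2, where much of the slow sum was Casq2 (11.9 of 12.98 CPM). In others it was not, as in HFD control replicate 5 (4.64%) and chow CL replicate 3 (7.19%). Per kilobase of exon, Myh4 made up 63.6 to 68.4% of the 4 myosin heavy chains Myh4, Myh1, Myh2 and Myh7 in chow control replicates 2 to 5 and Myh7 12.3 to 16.1%. In chow saline replicates 1, 4 and 5, Myh4 made up 87.3 to 89.4% and Myh7 0 to 1.70%. These shares rest on 4487 to 44574 myosin counts in each of these 7 libraries, and the difference between the groups was not tested. Chow control replicate 1 lay nearer to chow saline, with Myh4 at 80.2% and Myh7 at 3.03% (3444 myosin counts). Chow C-3BO replicate 3 had 87.4% and 1.98% (2999 myosin counts), and in the other chow C-3BO libraries Myh4 made up 67.8 to 79.9%. Of the 50-base stretches in the longest annotated transcript, Myh4 shares 13.3%, Myh1 22.9% and Myh2 22.3% with the other fast heavy chains here, and Myh7 shares 22.2% with the heart gene Myh6. How reads that map to several genes were treated is not given in the sources used here.

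**Figure D2:**
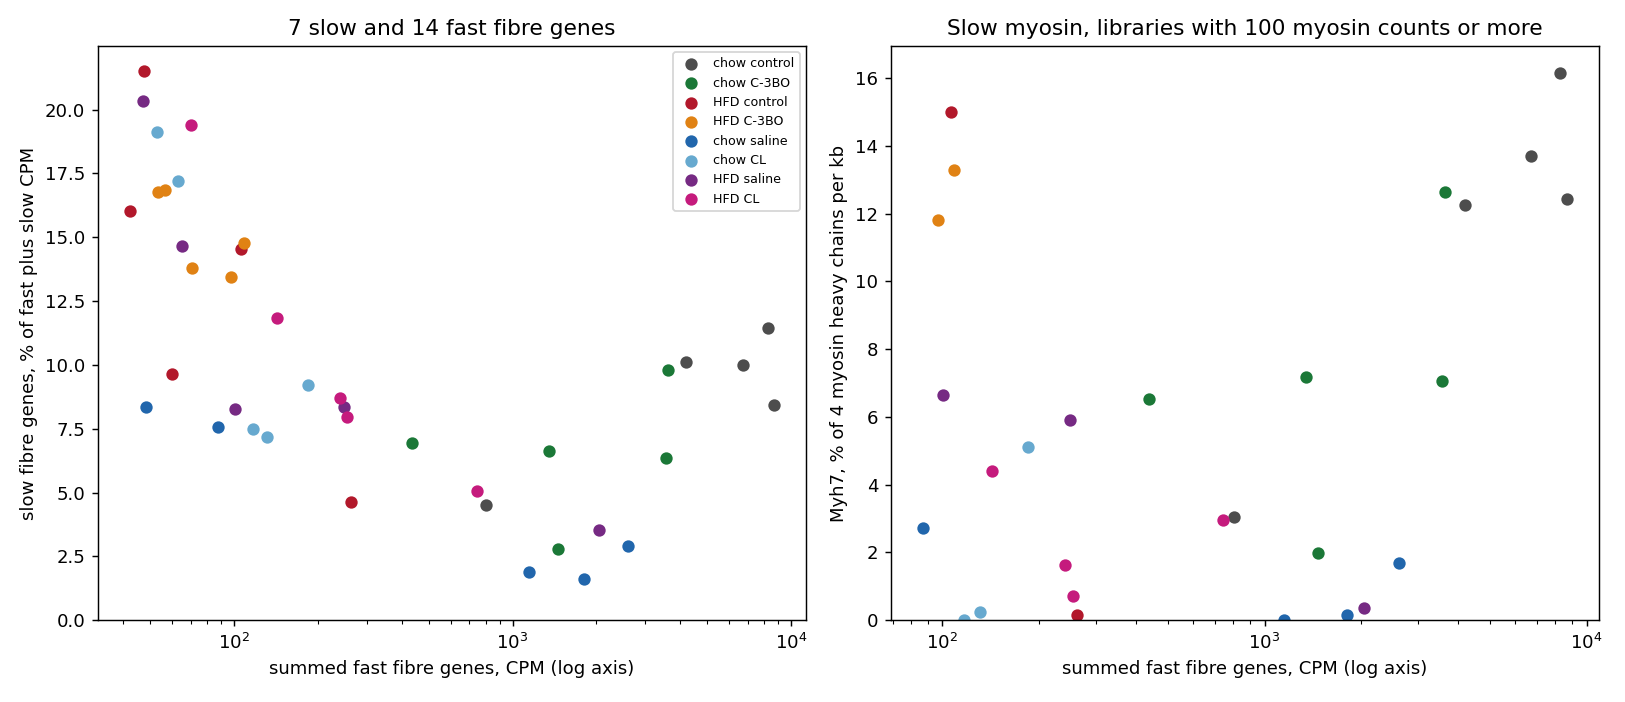
Left, CPM of 7 slow fibre genes as % of the CPM of 7 slow plus 14 fast fibre genes in each library, against the summed fast genes on a log axis; right, Myh7 as % of 4 myosin heavy chains per kilobase in the 28 libraries with 100 myosin counts or more. Among libraries with over 1000 CPM of fast genes, chow control (8.43 to 11.5%) lies above chow saline (1.62 to 2.91%) in the slow share. Chow C-3BO spans 2.81 to 9.79% there.

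To describe how closely members scaled together, each was correlated with Acta1 over the 40 libraries as log2 CPM with a prior count of 2. Acta1 covered its range without a gap that would split the libraries into clusters. Pearson's r was above 0.9 for 25 of the other 35 members, with a median of 0.97, and highest for Atp2a1 (0.995), Tnnt3 (0.994), Tnni2 (0.994) and Myh4 (0.994). Spearman's rho was also above 0.9 for 25 members. The smallest value that 100000 permutations of the libraries can give (1e-05, two-sided, 1.03e-05 after Benjamini-Hochberg adjustment over the 35 members) was reached by r for all but Casq2. These libraries share groups, cohorts and scaling factors, and the members are not independent of each other. As deviations from the group means, r exceeded 0.9 for 20 members. It did so for 31 members in the 20 uninjected libraries, for 24 in the 20 injected ones, for 26 in the 28 libraries outside the set with liver transcripts and for 23 within that set of 12. Without chow control replicates 3 and 4, the libraries farthest from the median of Acta1, 25 members stayed above 0.9.

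Of the slow genes, Mybpc1, a myosin-binding protein, scaled with Acta1 as the fast genes did (r 0.983). The 5 members least like Acta1 were Casq2 (r 0.0983, rho 0.107, permutation p = 0.543 for r and 0.508 for rho), Mb (0.685, rho 0.661), Tnnc1 (0.720, rho 0.588), Tnnt1 (0.825, rho 0.778) and Myh7 (0.827, rho 0.779). Several slow genes departed in the injected cohort. In the uninjected libraries, r with Acta1 was 0.941 for Myh7, 0.923 for Tnnt1 and 0.912 for Tnnc1. In the injected ones it was 0.479, 0.553 and -0.0772, while Mybpc1 kept 0.973 (0.987 uninjected). A difference between these correlations was not tested. Over the 40 libraries, Myh7 and Tnnt1 were at or under 3 counts in 15 libraries each and Tnnc1 in 13. Myh7 reached 158 counts at most in an injected library, against 6743 in an uninjected one. These correlations thus rest in part on very few counts. Tnnc1, the slow troponin that binds calcium, was at 3.93, 3.08, 1.94, 2.02 and 1.90 CPM in chow CL and at 2.92, 0.446, 0.268, 0.203 and 0.680 CPM in chow saline, and its log2 fold change of 1.52 (SE 0.74) did not pass the test (adjusted p = 0.167, edgeR). Some members never fell to the floor of 3 counts. Myl1, an essential light chain of fast myosin, kept 29.1 CPM or more in every library, Eno3, the muscle enolase of glycolysis, 4.53 CPM or more, and Pygm, the muscle glycogen phosphorylase, 6.30 CPM or more. Myoz2, a Z-disc protein of slow fibres, was instead at or under 3 counts in 25 libraries and had 1 count in all of HFD control, and Tnni1 had 4 counts there.

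**Figure D3:**
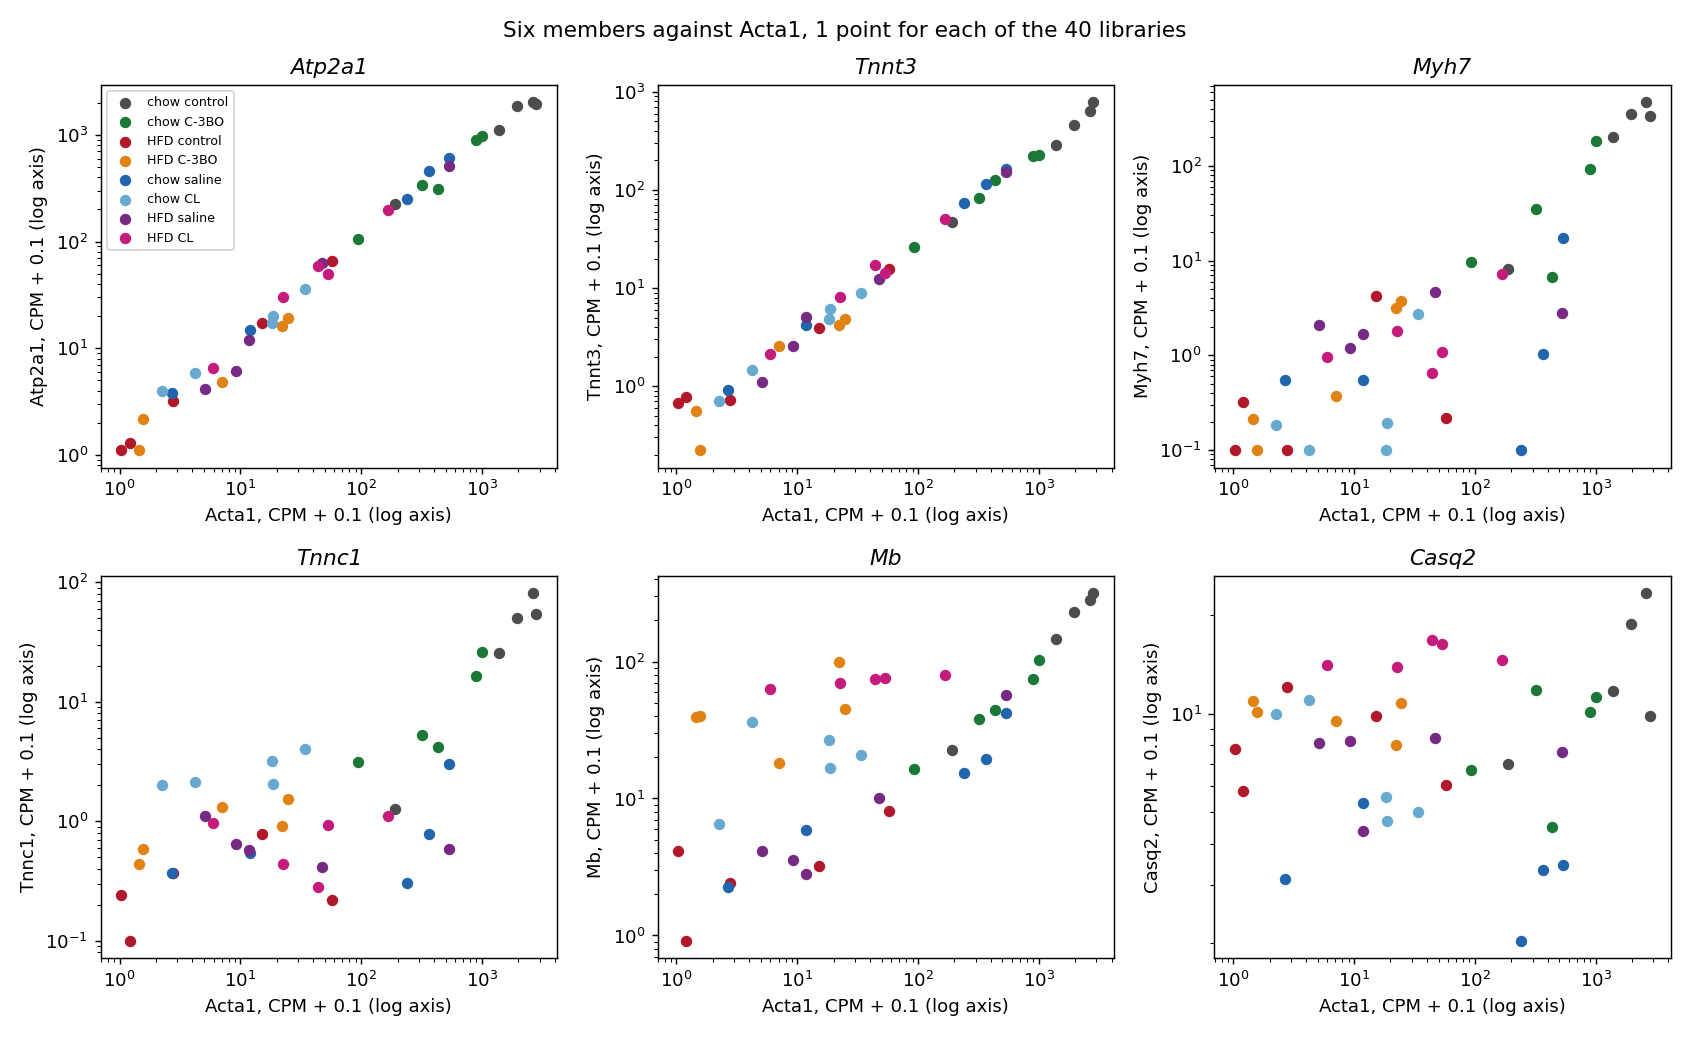
Level of 6 members against Acta1, each axis as CPM plus 0.1 on a log axis, with 1 point per library coloured by group. Atp2a1 and Tnnt3 follow Acta1 over the whole range (r 0.995 and 0.994), Myh7 and Tnnc1 scatter at low levels, Mb has points of HFD C-3BO, HFD CL and chow CL far above the trend, and Casq2 shows no trend (r 0.0983).

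Among 13241 tested genes outside the list, 40 had an r above 0.9 with Acta1. The 10 highest were Klhl31, Mylk4, Eef1a2, Myom2, 3425401B19Rik, Apobec2, Cox6a2, Ckmt2, Nrap and Mylk2, with r from 0.957 to 0.977 over the 40 libraries. Several are known from striated muscle, among them the M-band protein Myom2, the mitochondrial creatine kinase Ckmt2 and the myosin light chain kinase Mylk2. Median CPM of Klhl31 was 61.8 in chow control and 0.178 in HFD control.

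**Figure D4:**
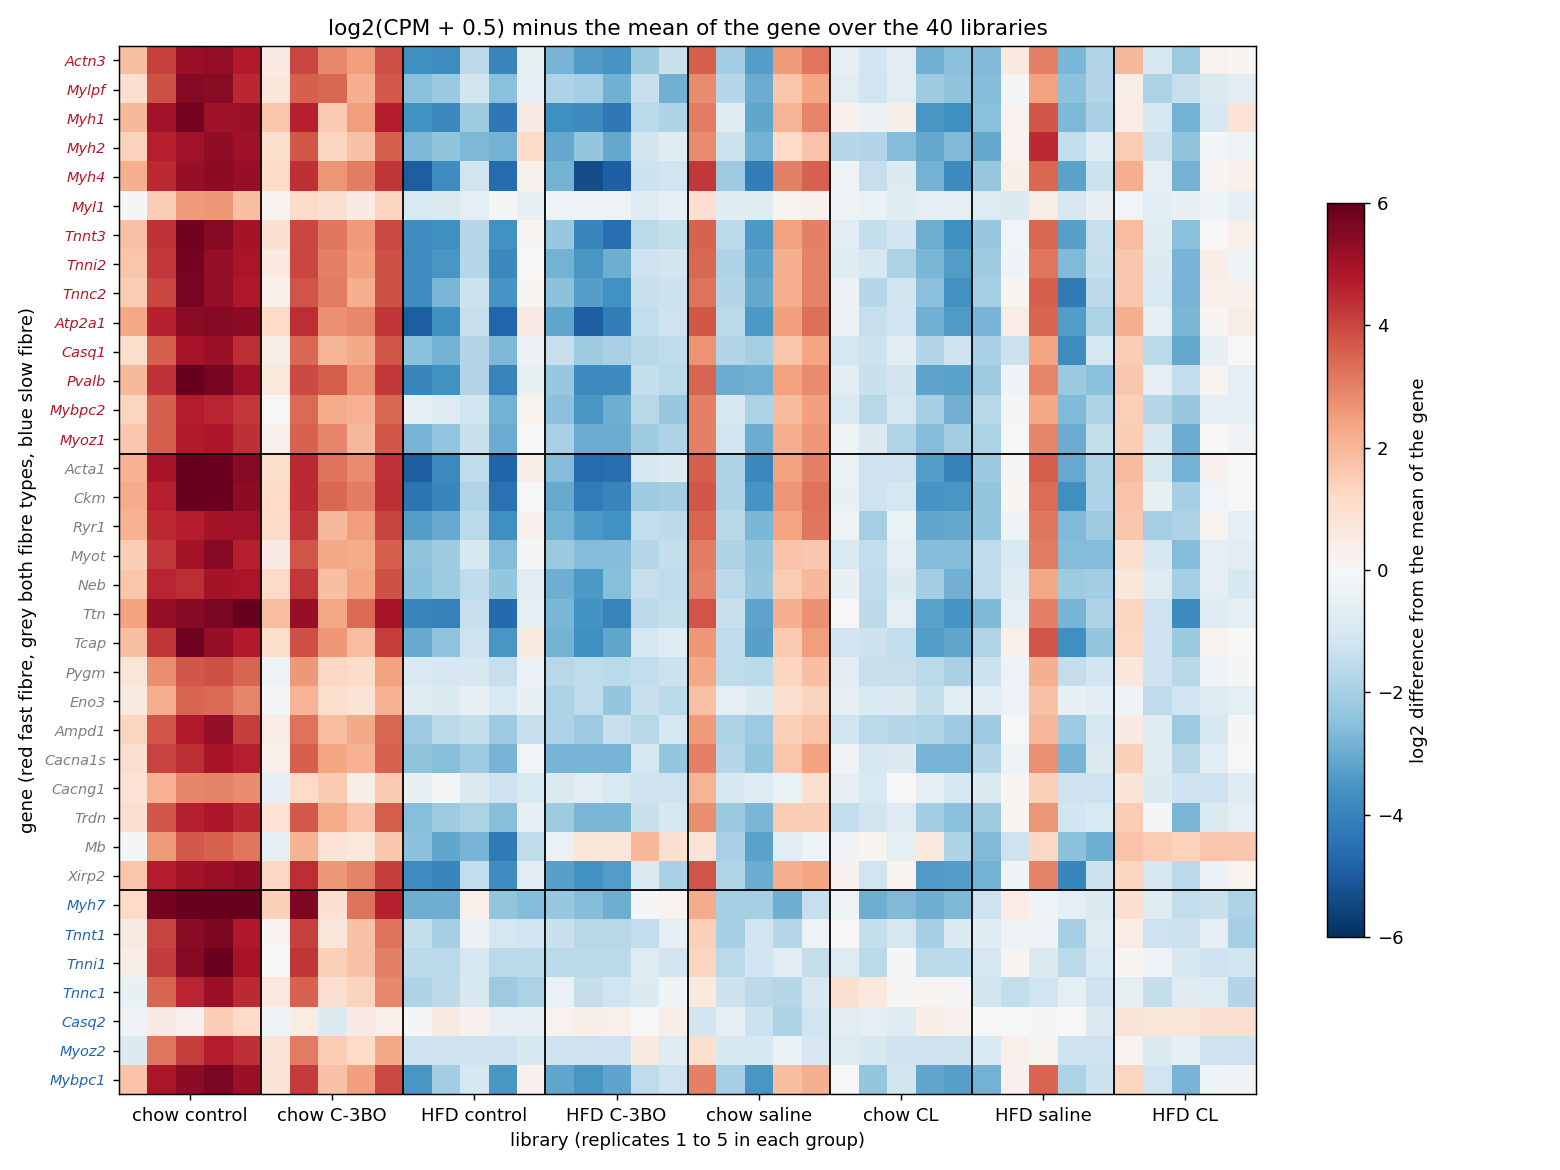
Members (rows, red names fast, grey both, blue slow fibre) in 40 libraries (columns by group), as log2(CPM + 0.5) minus each gene's mean. Most rows share 1 pattern of high and low libraries, with chow control replicates 2 to 5 highest and HFD saline replicate 3 standing out of its group, while Mb and Casq2 differ from the other rows.

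Whether the groups differed was tested with edgeR's quasi-likelihood model, with all 36 members among the 13277 genes tested and p-values adjusted over all of them (Benjamini-Hochberg). A gene was called at an adjusted p under 0.05 and a log2 fold change above 1 or below -1. The diet comparison in control mice asked how BAT differed after 7 days of HFD. Of the 36 members, 35 were called lower on HFD, against 4.87% of all tested genes called lower, and none was called higher (1.24% of all). The median log2 fold change was -6.84 over the members and 0 over all genes. Every HFD control library lay below every chow control library for 35 members, which held for 9.44% of all tested genes. All 14 fast genes (median -6.59), 6 of 7 slow genes (median -7.29) and all 15 genes of both fibre types (median -6.86) were called lower. The smallest adjusted p-values belonged to Tnnc1 (log2 fold change -7.29, SE 0.79, adjusted p = 1.16e-08), Tnni1 (adjusted p = 4.47e-08), Myoz2 (1.25e-07), Tnnt1 (-6.90, SE 0.87, 1.86e-07), Ampd1 (-7.84, SE 1.00, 2.1e-07) and Myl1 (-2.51, SE 0.32, 2.43e-07). Ampd1 is the muscle AMP deaminase. The fold change of Acta1 was -6.93 (SE 1.34, adjusted p = 9.94e-05). Casq2 was the member not called, with -0.77 (SE 0.27, adjusted p = 0.0265). None of the 12 libraries with liver transcripts was in these groups, and the count of 35 was the same without any 1 library. The labels give no dates of dissection, RNA extraction or library preparation. A difference in handling between chow and HFD mice therefore cannot be told apart from diet, here or in C-3BO mice. The same limit applies to CL against saline and to C-3BO against control.

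The same diet comparison in C-3BO mice gave 34 members called lower (3.38% of all tested genes) and none higher (2.42% of all), with a median of -5.77 against 0.03 over all genes. For these 34 members every HFD library lay below every chow library, as for 7.53% of all genes. The smallest adjusted p-values were those of Eno3 (-3.19, SE 0.53, 2.99e-05), Neb (-5.67, SE 0.96, 3.63e-05), Mybpc2 (-5.70, SE 1.04, 0.000103), Mylpf (-5.59, SE 1.02, 0.000105), Tnni1 (0.000141, with 3 counts in all of HFD C-3BO) and Ttn (-6.70, SE 1.26, 0.000145). Neb and Ttn encode the giant proteins nebulin and titin that span the sarcomere, Mybpc2 a myosin-binding protein and Mylpf a fast regulatory light chain. The members not called were Mb (-0.21, SE 0.61, adjusted p = 0.843) and Casq2 (0.15, SE 0.29, adjusted p = 0.743). HFD C-3BO replicates 4 and 5, which hold liver transcripts, had more Acta1 than the other 3. Without them 34 members were called lower, as were 422 of 13549 tested genes.

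In saline-injected mice, by contrast, no member was called lower on HFD (1.45% of all tested genes), and only Casq2 was called higher (2.17% of all). The median log2 fold change was -0.80 over the members and -0.01 over all genes. This count rested on a single library. Without HFD saline replicate 3, 21 members were called, 20 of them lower, and the median was -3.06. That fit called 237 of 13417 tested genes lower and 296 higher. The median was -0.23 without chow saline replicate 1, -0.48 without HFD saline replicate 1 and -0.53 without HFD saline replicate 5. Without chow saline replicate 4 no member was called. In CL-injected mice, no member was called lower on HFD (2.21% of all) and Casq2 and Mb were called higher (3.13% of all), with a median of 1.74 against -0.01, or 0.87 without HFD CL replicate 1. In a fit of the libraries of these groups alone, 15 members were called, 14 of them higher and 1 lower. That fit called 341 of 12110 tested genes higher and 222 lower. All HFD libraries of these comparisons belong to the set with liver transcripts.

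**Figure D5:**
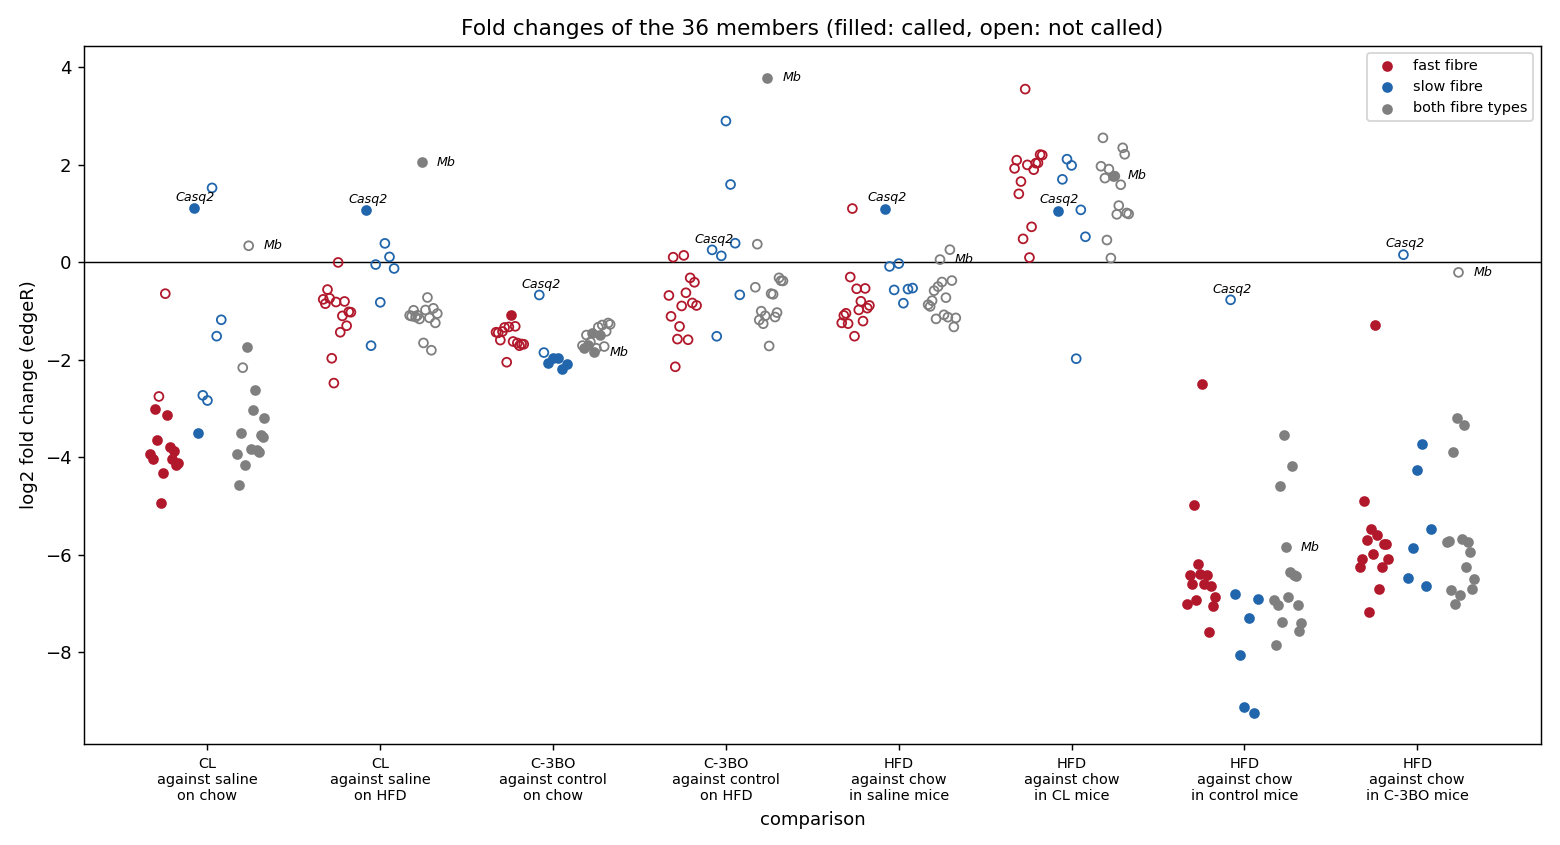
Fitted log2 fold changes of the 36 members in 8 comparisons, by fibre class (filled points called, open points not called), with Mb and Casq2 named. Points lie near -7 and -6 for HFD against chow in control and C-3BO mice, near -3.5 for CL against saline on chow, and on both sides of 0 for the slow genes in several comparisons.

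CL was compared with saline on chow to find how repeated β3-adrenergic stimulation changed BAT. Of the members, 26 were called lower after CL (1.45% of all tested genes) and 1, Casq2, higher (1.12% of all). The median log2 fold change was -3.52 against -0.01 over all genes. The groups overlapped for all 36 members. Of all tested genes, 5.88% had every CL library above every saline library and 3.52% every one below. Called lower were 12 of 14 fast genes (median -3.90) and 13 of 15 genes of both fibre types (median -3.53). Of 7 slow genes 1 was called lower and 1 higher (median -1.52). The members with the smallest adjusted p were Mybpc2 (-3.65, SE 0.85, 0.00275), Ampd1 (-4.56, SE 1.09, 0.0034), Pygm (-2.61, SE 0.65, 0.00508), Tnni2 (-4.17, SE 1.05, 0.00566), Pvalb (-4.04, SE 1.03, 0.00572) and Actn3 (-3.93, SE 1.00, 0.00585). Pvalb encodes the calcium buffer parvalbumin of fast fibres and Actn3 their α-actinin. Acta1 fell by 3.93 on the log2 scale (SE 1.18, adjusted p = 0.0193), a call that was lost without chow saline replicate 1 (-3.37) or chow CL replicate 4 (-3.67). Without those libraries, 18 and 19 members were called, 16 and 19 of them lower, against 133 and 121 of 13408 tested genes called lower.

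On HFD, no member was called lower after CL (2.06% of all tested genes), and Casq2 and Mb were called higher (2.06% of all). The median was -1.002 against -0.01 over all genes. Without HFD saline replicate 3 the median turned to 1.13 and the fold change of Acta1 from -1.09 to 1.55. In that fit 2 members were called higher, as were 256 of 13417 tested genes. Without HFD CL replicate 1 the median was -1.78. The difference between the CL effects on the 2 diets was called for no member by edgeR or DESeq2 at an adjusted p under 0.05. Over all tested genes edgeR called 2 (0.0151%), and its smallest adjusted p for a member was 0.45.

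C-3BO was compared with control to learn how Gpr3 overexpression changed BAT. On chow, 11 members were called lower in C-3BO (4.81% of all tested genes) and none higher (2.37% of all), with all 36 fold changes below 0 and a median of -1.63 against -0.03. The 11 were 5 of 7 slow genes, 1 fast gene and 5 of both types, although the groups overlapped for all 36 members. Of all tested genes, 10.4% had every C-3BO library above every control library and 8.02% every one below. Slow genes had a median of -1.97 and fast genes of -1.52. The smallest adjusted p-values were those of Tnnc1 (-1.96, SE 0.53, 0.00471), Tnni1 (-2.20, SE 0.62, 0.00638), Myl1 (-1.08, SE 0.31, 0.00646), Tnnt1 (-2.09, SE 0.62, 0.0094), Eno3 (-1.45, SE 0.45, 0.0125) and Myoz2 (-1.97, SE 0.63, 0.0149). Acta1 had -1.71 (SE 1.04, adjusted p = 0.213). The count fell to 5 without chow control replicate 3 or 4 or without chow C-3BO replicate 1, and to 7 without chow C-3BO replicate 4. In these fits 528 to 571 of 13391 to 13431 tested genes were called lower. Among the members named here, the calls of Myl1 and Mb were lost without chow control replicate 3 (-0.87 and -1.62) or chow C-3BO replicate 1 (-0.95 and -1.62), and those of Myl1 and Myoz2 without chow control replicate 4 (-0.84 and -1.63). DESeq2 called 4 members lower (627 of 13277 tested genes), without Tnni1, Tnnt1 and Myoz2 (adjusted p = 0.0896 to 0.179). A fit of these groups alone called 6 lower (487 of 12369 tested genes), of which 4 were among the 11. Tnnc1, Tnni1, Myl1, Tnnt1 and Myoz2 were among those lost (adjusted p = 0.0526 to 0.0708).

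On HFD, Mb alone was called higher in C-3BO (4.34% of all tested genes) and no member was called lower (3.1% of all), with a median of -0.66 against -0.02. The median turned to 0.28 without HFD control replicate 5, and was -1.06 without HFD C-3BO replicate 5 and -1.99 without HFD C-3BO replicates 4 and 5. A fit of these groups alone called 2 members lower, among 352 of 12165 tested genes called lower. Mb encodes myoglobin, which binds oxygen in the cell. It stood at 4.03, 2.31, 3.09, 0.813 and 7.99 CPM in HFD control and at 18.1, 39.5, 40.2, 98.6 and 45.3 CPM in HFD C-3BO, without overlap. The log2 fold change was 3.78 (SE 0.74, adjusted p = 0.000124), and 3.24 when HFD C-3BO replicates 4 and 5 were left out (adjusted p = 0.00242). On chow, Mb was at 22.4, 146, 316, 282 and 229 CPM in control and 16.4, 103, 44.2, 37.7 and 74.5 CPM in C-3BO (-1.85, SE 0.61, adjusted p = 0.019), with the libraries of each group in the same order as for Acta1. For Mb, the difference between the C-3BO effects on the 2 diets (HFD less chow) was 5.63 (SE 0.97, adjusted p = 0.000685), the only member called in that test (2.09% of all tested genes). Without chow control replicate 1, 3 members were called higher in that test, as were 198 of 13402 tested genes.

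Mb was also called higher after CL on HFD, but not on chow. In HFD CL it was at 79.9, 69.1, 63.4, 75.4 and 74.1 CPM against 3.44, 9.92, 56.9, 4.01 and 2.70 CPM in HFD saline, with replicate 3 of HFD saline again the highest of its group. The log2 fold change was 2.05 (SE 0.67, adjusted p = 0.0233), and the call was lost without HFD saline replicate 1 (1.78), 2 (1.88) or 5 (1.78). In chow CL it was at 20.7, 26.7, 16.5, 35.8 and 6.39 CPM and in chow saline at 42.0, 5.79, 2.15, 15.2 and 19.4 CPM (0.34, SE 0.64, adjusted p = 0.784). HFD CL exceeded chow CL by 1.77 (SE 0.63, adjusted p = 0.038), and leaving out any 1 of 8 libraries ended that call, with values between 1.53 and 1.86. The Mb gene (chr15:76845917-76881098, minus strand, mm9) overlaps Apol6 on the plus strand, and whether the counting used strand is not given in the sources used here. For Apol6 the log2 fold change was -0.03 between HFD C-3BO and HFD control (SE 0.21, adjusted p = 0.922) and -0.55 for CL on HFD (SE 0.21, adjusted p = 0.0531). On HFD in control mice, where Mb fell by 5.84 on the log2 scale, Apol6 was called higher (1.11, SE 0.21, adjusted p = 6.87e-05).

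Casq2, the calsequestrin of heart and slow muscle, moved apart from the other members. It was at 3.35, 5.24, 3.04, 1.93 and 3.23 CPM in chow saline and at 4.91, 5.45, 4.62, 10.9 and 9.84 CPM in chow CL. In HFD saline it was at 8.13, 8.34, 7.52, 8.02 and 4.29 CPM and in HFD CL at 14.5, 13.7, 13.96, 16.2 and 16.7 CPM, without overlap. The log2 fold change for CL was 1.11 on chow (SE 0.30, adjusted p = 0.00957) and 1.07 on HFD (SE 0.30, adjusted p = 0.00888), and HFD exceeded chow by 1.10 with saline (SE 0.32, adjusted p = 0.016) and 1.06 with CL (SE 0.28, adjusted p = 0.00558). These values lie near the threshold of 1. The CL call on chow was lost without chow saline replicate 4 (0.97), chow CL replicate 4 (0.90) or chow CL replicate 5 (0.97), that on HFD without HFD saline replicate 5 (0.92), and the diet calls without chow saline replicate 4 (0.96) or chow CL replicate 1, 2 or 3 (0.93 to 0.98). In the uninjected cohort Casq2 ranged from 4.42 to 23.2 CPM and was not called in any comparison.

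Further lists were read beside the members. Of 19 further sarcomere and coupling genes in the table, 18 were called lower on HFD in control mice (4.87% of all tested genes) and 16 in C-3BO mice (3.38%), with medians of -4.94 and -4.41. After CL on chow 9 were called lower (1.45%) and in C-3BO on chow 11 (4.81%), with medians of -1.97 and -1.57, and none was in the other comparisons. Cox8b, a cytochrome oxidase subunit that brown fat also uses, was not among those called in any comparison. Of 9 myogenic regulators and genes of embryonic fibres or satellite cells, only Myf6, a regulator kept in mature fibres, passed the filter on low counts. It was called lower on HFD in control mice (-6.06, SE 1.05, adjusted p = 2.18e-05) and in C-3BO mice (-5.10, SE 1.47, adjusted p = 0.0091) and after CL on chow (-3.74, SE 1.16, adjusted p = 0.0227). The 6 smooth muscle genes summed to 52.0 to 235 CPM over all libraries and had no lower call in any comparison. On HFD, 1 of them was called higher in C-3BO mice (2.42% of all tested genes) and 1 in CL mice (3.13%). Their median log2 fold change for HFD in control mice was 0.81, without a call. Of 8 heart genes, 1 (Myl4) passed the filter and was not called, Myl7 had no count and Myh6 66 counts in all libraries together. The 8 brown adipocyte genes summed to 11556 to 15434 CPM in chow control and 13655 to 26461 CPM in HFD control, and none of them was called lower in any comparison. Called higher were 2 of the 8 for CL on HFD (2.06% of all), C-3BO on chow (2.37%), C-3BO on HFD (4.34%) and HFD in C-3BO mice (2.42%). It was 1 for CL on chow (1.12%) and for HFD in control (1.24%) and CL mice (3.13%). The 4 Schwann cell genes had no call, and their sums overlapped between the diet groups of the control mice, at 49.5 to 81.3 CPM on chow and 47.9 to 98.5 CPM on HFD. Of 7 liver genes tested, 7 were called higher in C-3BO on HFD (4.34% of all tested genes). In HFD C-3BO, replicates 4 and 5 held 294 and 272 CPM of Alb, against at most 1.62 CPM outside the set of 12 libraries. The liver genes were not counted without these replicates. On HFD against chow, 6 liver genes were called higher in C-3BO (2.42%), saline (2.17%) and CL mice (3.13%) each. In saline (1.45%) and control mice (4.87%) 1 liver gene was called lower, while CL on HFD had 1 higher (2.06%). Of 3 macrophage genes, 3 were called higher on HFD in saline mice (2.17%) and 1 in CL mice (3.13%), and 1 was called lower after CL on HFD (2.06%). The single erythroid gene tested was not called. Whether the skeletal muscle transcripts came from tissue beside the fat was not tested.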

How the data were processed

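Poly(A) RNA from BAT of 40 mice was sequenced on a HiSeq 1500. The authors aligned reads to mm9 with STAR, used HOMER, and deposited raw counts over the exons of RefSeq genes made with iRNA-seq, not normalized. Versions, strandedness and the treatment of reads that map to several genes are not given in the sources used here. No other files or per-sample columns were used.

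From these counts, edgeR (4.0.16, limma 3.58.1, R 4.3.3) fitted 8 group means over the 40 libraries after filterByExpr (minimum count 10) and TMM scaling (factors 0.798 to 1.18), with quasi-likelihood tests and Benjamini-Hochberg adjustment over 13277 genes. A gene was called at an adjusted p under 0.05 and a log2 fold change above 1 or below -1, or by the adjusted p alone for differences between effects. Standard errors (SE) were the fold change divided by the root of F. Correlations used log2 CPM with a prior count of 2 and 100000 permutations. A count of 3 corresponds to 0.206 to 3.01 CPM, depending on depth, and covers counting error only. Python 3.11.15, pandas 2.3.3, scipy 1.17.1 and matplotlib 3.10.9 were used for the rest, and the tests were tested on simulated data.

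The 36 members, the fibre lists and the marker lists (further sarcomere and coupling genes, myogenic regulators, heart, smooth muscle, brown adipocytes, liver, Schwann cells, erythroid cells, macrophages) were chosen with earlier results of these data known. All members were counted. By rule, values were given for 16 members with roles in contraction or energy supply, for up to 6 called members with the smallest adjusted p in each comparison, for the 5 members least like Acta1 and for the 10 other genes most like it. Outside this rule, the minima of Myl1 and Pygm, the counts of Myoz2, Mybpc1, Cox8b and Apol6 were named after their values were seen. The labels name 1 mouse per library. Replicate numbers were not treated as pairs: in no comparison did every pair of same-numbered libraries correlate above 0.1 in deviations from the group means. For C-3BO against control on chow 3 pairs did (mean r 0.172, highest 0.444), and this check cannot exclude pairing. Alternatives were RLE factors, library totals alone, no filter, the replicate block, only the groups compared, DESeq2 (1.42.0), HFD C-3BO replicates 4 and 5 left out, and each library left out in turn.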

Additional observations from a re-analysis of the deposited data

Results flagged for a closer look

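Within groups of 5 libraries, 8 of 72 combinations of group and measure had a highest or lowest library set apart by Dixon's criterion on log2 CPM, where chance gives about 1 in 20. In chow control, replicate 1 was the low library for Acta1 (189.6 CPM), Myh4 (229 CPM), Myh7 (8.01 CPM) and the summed level of the members (1554 CPM), and these measures share their libraries. Myh7 was set apart as high in HFD control replicate 3 (4.12 CPM) and in chow CL replicate 1 (2.65 CPM). Casq2 was set apart as low in HFD saline replicate 5 (4.29 CPM), and Eno3 as high in HFD saline replicate 3 (83.1 CPM), the library that also held the most Acta1 of its group.

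The C-3BO effect on Mb differed between the diets, by 5.63 on the log2 scale (edgeR, adjusted p = 0.000685), with a lower level in C-3BO on chow and a higher one on HFD. On chow, however, all 36 members had fold changes below 0 in C-3BO (median -1.63). The chow call of Mb was lost without chow control replicate 3 or chow C-3BO replicate 1. How far the chow part follows the level of all muscle transcripts was not tested.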

How the results depend on the processing

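The count of lower calls for HFD was 35 in control mice and 34 in C-3BO mice under the alternatives run, except for 34 and 32 in a fit of only the groups compared. Leaving out 1 library gave 18 to 29 members called for CL on chow, 0 to 2 for CL on HFD, 5 to 16 for C-3BO on chow, 1 for C-3BO on HFD, 0 to 21 for HFD in saline mice, 0 to 2 for HFD in CL mice, 1 to 3 for the difference between C-3BO effects and 0 for that between CL effects. Scaling by library totals alone left 1 member called for CL on HFD. A fit of only the groups compared called 6 for C-3BO on chow, 3 for C-3BO on HFD and 15 for HFD in CL mice. DESeq2 called 4 for C-3BO on chow and 2 for the difference between C-3BO effects. The cause of these changes was not tested.

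Some values that were not called changed sign. Mb for HFD in saline mice was -0.19 with the replicate block and -0.12 with DESeq2 (-1.69 to 0.70 without 1 library). The Acta1 difference between C-3BO effects was -0.51 without HFD C-3BO replicates 4 and 5. The correlation of Casq2 with Acta1 was -0.0457 as deviations from group means and -0.0153 without the 2 farthest libraries. Without 1 library, Acta1 lay at -1.97 to 1.55 for CL on HFD and -1.05 to 1.04 for C-3BO on HFD, Mb at -0.66 to 0.14 and Casq2 at -0.047 to 0.28 for HFD in C-3BO mice, and the Casq2 difference between CL effects at -0.22 to 0.17.

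With the replicate block, 9 members were called for C-3BO on chow and 27 for CL on chow. Same-numbered libraries correlated between -0.376 and 0.444, and the block moved no count by more than 1.5 times.

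Scaling by library totals alone gave medians of all genes between -0.23 and 0.21, against -0.03 to 0.03 with TMM, and moved the share of calls that were higher, for example from 20.3% to 38.2% for HFD in control mice and from 43.6% to 25.4% for CL on chow. It ended the Casq2 calls for CL on chow (0.96) and HFD (0.92). Low totals limit the injected HFD libraries, where 3 counts can be 3.01 CPM.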
